A study of Homo sapiens with 4 samples.

Results

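The genes that took most ribosome footprints in melanocytes given control siRNA were described in the control libraries of a ribosome profiling series. These are the 2 libraries of cells given control siRNA, of 4 libraries in all, and nothing in the other libraries was used. Reads in coding sequence were summed for each gene name and scaled to the library's coding total, which gives coding CPM, the gene's reads in every 1000000 coding reads. Of 13145 gene names with a coding read in either library, 11262 were seen in both. Genes on a muscle or a collagen list that were at least 10-fold higher in replicate 1 than in replicate 2 were set apart. They numbered 60, of which 25 had been seen in both libraries, and 11237 genes were left to be ranked.

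The cells were melanocytes of the human line Hermes 4B, immortalised cells from skin, with no genetic change named beyond the line itself. Both libraries came from cells at 50% confluency that took up control siRNA (25 to 50 nM) with a transfection reagent, replicate 1 in batch 1 and replicate 2 in batch 2. The medium held 10% serum, the phorbol ester TPA at 200 nM, endothelin-1 at 10 nM, cholera toxin at 200 pM and stem cell factor at 10 ng/mL, so the melanocyte growth factors and a phorbol ester were present throughout. Ribosomes were held on their messages with 100 µg/mL cycloheximide, and RNase I left the fragments they cover. A single line stands for melanocytes here, the labels do not say whether each library had a culture of its own, and with 1 library per batch replicate and batch cannot be told apart. No test was made, since both libraries belong to one group. Differences between them are given as values, and a mean ± SD over both has n = 2.

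Melanocytes make melanin inside melanosomes, organelles related to lysosomes. PMEL forms the fibrils on which melanin is laid down, and the enzymes TYR, TYRP1 and DCT make the pigment, with MLANA helping PMEL to mature. The transcription factor MITF, acting with SOX10 and PAX3, turns on most of these genes, often through a sequence called the M-box, an E-box preceded by a T.

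The stretches just before the start sites of 4 melanosome genes with many footprints are shown because the M-box letters are known from this family. They are not the 4 highest of the family. PMEL has no entry in the source of these stretches and could not be examined, and CD63, above TYR and MLANA by footprints, is not shown. Each stretch is 250 bases that end at the base before the RefSeq start site (GRCh38.p14), and capitals mark TCATGTG or its reverse complement CACATGA. The TYRP1 stretch is chr9:12693135-12693384, the TYR stretch chr11:89177625-89177874, the GPNMB stretch chr7:23246525-23246774 and the MLANA stretch chr9:5890639-5890888, all on the plus strand.
TYRP1: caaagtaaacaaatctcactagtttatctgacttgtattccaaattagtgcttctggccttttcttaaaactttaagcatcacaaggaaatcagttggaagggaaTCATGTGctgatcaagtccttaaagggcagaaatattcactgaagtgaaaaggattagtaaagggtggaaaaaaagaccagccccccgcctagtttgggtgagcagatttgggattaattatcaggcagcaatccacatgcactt
TYR: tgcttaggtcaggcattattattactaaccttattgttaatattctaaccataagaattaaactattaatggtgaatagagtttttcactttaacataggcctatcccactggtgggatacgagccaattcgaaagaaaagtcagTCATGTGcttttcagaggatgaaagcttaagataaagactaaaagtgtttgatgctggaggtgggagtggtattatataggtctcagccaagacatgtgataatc
GPNMB: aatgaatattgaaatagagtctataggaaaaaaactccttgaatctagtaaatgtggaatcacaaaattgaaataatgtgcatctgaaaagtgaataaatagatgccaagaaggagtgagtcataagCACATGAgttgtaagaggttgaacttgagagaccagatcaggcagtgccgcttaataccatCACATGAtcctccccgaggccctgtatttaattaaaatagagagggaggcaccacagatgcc
MLANA: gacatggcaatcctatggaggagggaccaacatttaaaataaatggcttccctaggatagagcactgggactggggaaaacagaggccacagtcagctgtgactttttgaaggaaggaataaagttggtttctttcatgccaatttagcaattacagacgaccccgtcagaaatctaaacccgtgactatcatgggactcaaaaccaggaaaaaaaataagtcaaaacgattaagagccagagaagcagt
The match in TYRP1 began 145 bases before the start and that in TYR 105 bases before it. GPNMB held 2 matches, 123 and 62 bases before the start, and MLANA held none. DCT has 2 start sites in the same source, and the stretch before one of them (chr13:94479683-94479932, minus strand) held 2 matches, 215 and 135 bases before the start, while the other held none. Searched on both strands, these letters were in 2.52% of all 35116 such stretches and in 195 of the 9072 ranked genes with an entry, or 2.15%. They were in 8 of the 76 genes with an entry among the 100 with most footprints. On the pigment list described next, 31 of 38 ranked genes had an entry and 8 held the letters (25.8%), namely CD63, DCT, GPNMB, GPR143, RAB17, SLC24A5, TYR and TYRP1. A match is a description of the letters, and RAB17 and DCT, both near the bottom of the list by footprints, hold it as well as TYRP1 at its top.

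By the mean CPM of both libraries, which counts footprints and so grows with coding length, TYRP1 and PMEL took more coding footprints than any other ranked gene. TYRP1, which stabilises tyrosinase and acts on later steps of pigment synthesis, lies at chr9:12693385-12710285 and had 15304 and 99264 coding reads in replicates 1 and 2. That was 8306 and 17637 CPM, a mean of 12972 ± 6598 CPM (SD, n = 2). PMEL (chr12:55954105-55966709), the fibril protein, had 7729 and 14850 CPM, a mean of 11290 CPM. Replicate 2 was the higher library for both genes, by 2.12-fold for TYRP1 and 1.92-fold for PMEL, and each was among the 4 highest ranked genes of either library. MLANA (chr9:5890889-5910606) had nearly the same level in both libraries, 2187 and 2243 CPM, and ranked 32. DCT, which makes the DHICA form of the pigment precursor, had 30 and 89 coding reads, or 16.3 and 15.8 CPM, and ranked 7650. The libraries hardly differed for DCT (1.03-fold), and both were below the median ranked gene at 32.8 CPM, so 3 of the 4 defining markers were high and DCT was not. PMEL, TYRP1, MLANA and DCT together held 1.82% of the coding footprints of replicate 1 and 3.47% of those of replicate 2, a mean of 2.65 ± 1.17% (SD, n = 2).

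**Figure D1:**
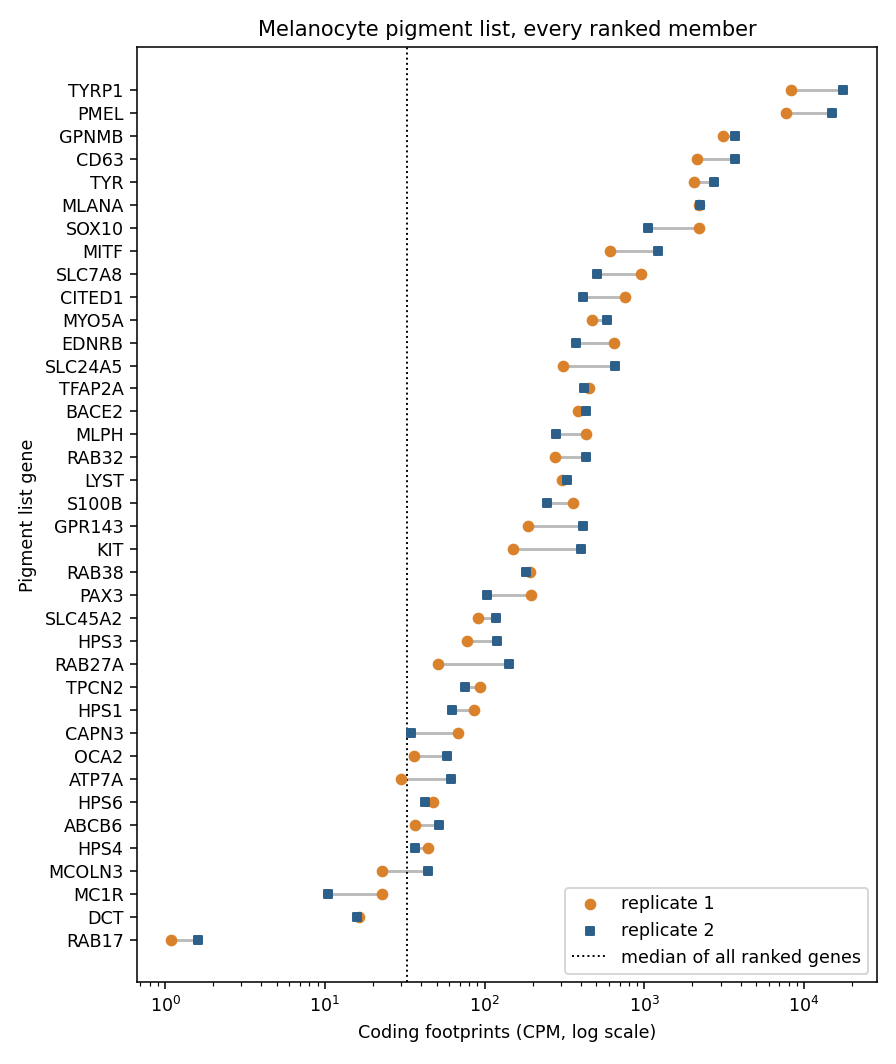
Coding footprints of the 38 ranked genes of the pigment list. The horizontal axis is coding CPM on a log scale, circles are replicate 1, squares are replicate 2, a line joins the libraries of a gene, and the dotted line is the median of all ranked genes at 32.8 CPM. TYRP1 and PMEL stand above all others in both libraries, and DCT, MC1R and RAB17 lie to the left of the median.

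The pigment list, of melanosome proteins and melanocyte receptors and factors, held the largest mean share of the lists by count of footprints. It took 3.51% of coding footprints in replicate 1 and 5.38% in replicate 2, a mean of 4.44 ± 1.32% (SD, n = 2), from 0.338% of the ranked genes. In replicate 1 the actin list was above it, with 3.84%. By density, which corrects for length, the histone and chromatin list was above it, with 4.47% against 4.24%. Density was taken from a single transcript of each gene, the one with most coding reads, so reads on a gene's other transcripts were left out. The median pigment gene had 300 CPM against 32.8 CPM over all ranked genes, and 7 of the 38 were in the top 100. Neither was the highest of the lists. Medians were higher for mitochondrial DNA (446 CPM), glycolysis (374), actin (341), lysosome (335) and annexins and S100 proteins (317). The actin and adhesion lists had 9 and 11 genes in the top 100. TYRP1 and PMEL together held 2.44% of the ranked footprints by mean, so much of the pigment share was theirs. Of the 39 pigment genes with a coding read in either library, TRPM1, a cation channel, was seen in replicate 2 alone, with 0 and 155 reads. HPS5 was not analysed here.

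Among the other melanosome proteins, GPNMB, a close relative of PMEL, had 3105 and 3713 CPM, and CD63, the tetraspanin that sorts PMEL, had 2140 and 3672 CPM. TYR, the enzyme that begins melanin synthesis, had 2043 and 2718 CPM. All of them were higher in replicate 2, by less than 2-fold. The ion transporters of the melanosome took fewer footprints, with SLC24A5 at 308 and 657 CPM, SLC45A2 at 91.2 and 118 CPM, and OCA2 at 36.4 and 57.8 CPM. Per length, as deposited coding RPKM, the same order held, with TYR at 1163 and 1605, SLC24A5 at 169 and 363, SLC45A2 at 51.8 and 69.3 and OCA2 at 12.3 and 21.1 RPKM. MFSD12, a carrier for the import of cysteine into melanosomes that was not on the list, had 2920 and 1641 CPM, the higher value in replicate 1. The parts that carry melanosomes along actin were MYO5A with 468 and 587 CPM, its adaptor MLPH with 432 and 280 CPM, and the GTPase RAB27A with 51.0 and 142 CPM.

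The regulators did not move together between the libraries. MITF had 606 and 1225 CPM, 2.02-fold higher in replicate 2, whereas SOX10 had 2198 and 1052 CPM, 2.09-fold higher in replicate 1. PAX3 had 194 and 103 CPM and TFAP2A 453 and 418 CPM. Among receptors, EDNRB, which binds the endothelin-1 of the medium, had 646 and 374 CPM, and KIT, the receptor for stem cell factor, had 150 and 403 CPM. MC1R, the melanocortin receptor that sets the kind of melanin, had 42 and 59 reads, or 22.8 and 10.5 CPM, fewer than the median gene in both libraries. Per length it had 21.6 and 10.3 RPKM, on either side of the median ranked gene at 18.2 RPKM.

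The libraries differed in depth and in more than depth. Replicate 1 had 2034854 reads over all regions and 1842464 in coding sequence, and replicate 2 had 5994485 and 5628127. Coding sequence held 90.5% (95% Clopper-Pearson interval 90.5 to 90.6) and 93.9% (93.9 to 93.9), intervals that cover counting error only. A gene with 3 reads stood at 1.63 and 0.533 CPM. Over the 11237 ranked genes the libraries correlated across genes with Spearman's rho of 0.909 and, on log2 CPM, Pearson's r of 0.894, and genes are not independent replicates. Of these genes 72.0% lay within 2-fold of each other, with a median log2 difference of 0.03 (replicate 1 minus replicate 2) and an SD of 1.11. At least 2-fold higher in replicate 1 were 1543 genes (13.7%), and 1603 (14.3%) were at least 2-fold higher in replicate 2. The chi-square per degree of freedom between their read counts was 41.9 over 10976 genes, and they were counted as 2 samples. Genes with reads in replicate 1 alone numbered 792, and 1091 had reads in replicate 2 alone, the latter with at most 155 reads.

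**Figure D2:**
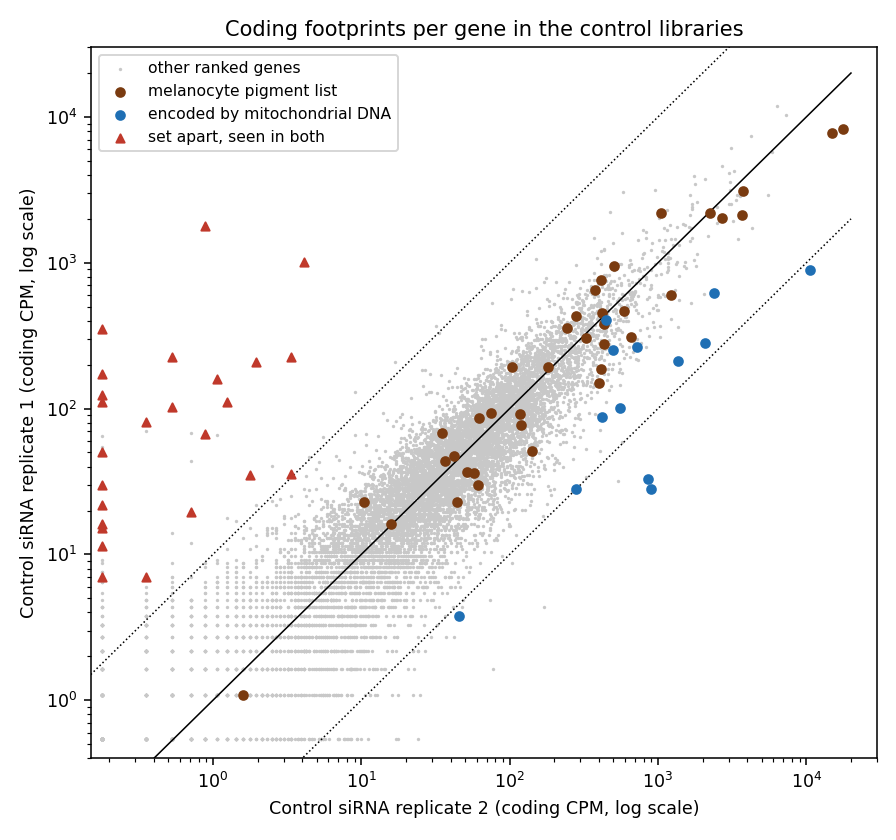
Coding CPM of each gene in replicate 1 (vertical, log scale) against replicate 2 (horizontal, log scale). The solid line is equality, the dotted lines are 10-fold differences, and colours mark the pigment list, the genes encoded by mitochondrial DNA and the 25 set-apart genes seen in both libraries. Pigment genes follow the solid line, and genes encoded by mitochondrial DNA lie below it.

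Coding footprints were spread over many genes. The highest 752 genes by mean held 50% of the ranked footprints, with 708 genes needed in replicate 1 and 725 in replicate 2. The top 10 held 7.10% and 8.04%, the top 100 held 23.2% and 23.6%, and the top 1000 held 56.6% and 56.0%. The top 100 of the libraries had 72 genes in common and the top 20 had 11, and 83 of the 100 highest by mean lay within 2-fold between the libraries.

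**Figure D3:**
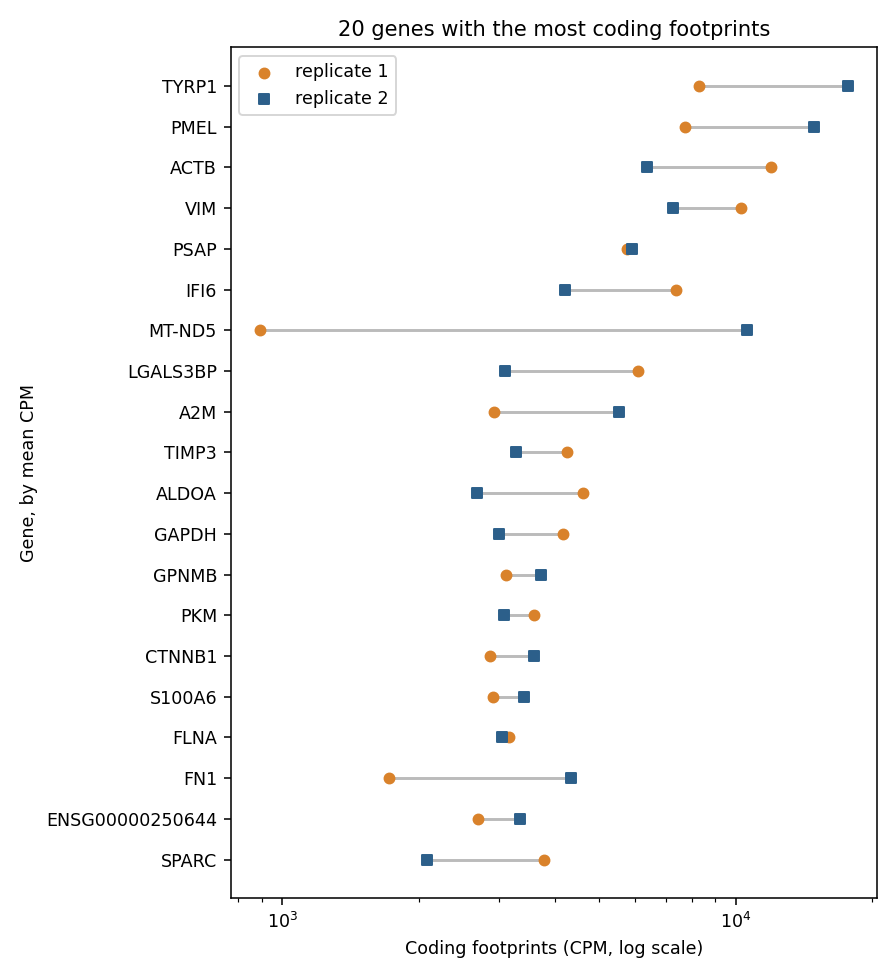
The 20 ranked genes with the highest mean coding CPM. The horizontal axis is coding CPM on a log scale, circles are replicate 1, squares are replicate 2, and a line joins the libraries of a gene. The longest line belongs to MT-ND5, at 893 and 10564 CPM, and the libraries nearly coincide for PSAP and FLNA.

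Genes of the cytoskeleton ranked 3 and 4 by mean CPM, after TYRP1 and PMEL. ACTB, the cytoplasmic beta-actin, had 11958 and 6366 CPM, and VIM, the intermediate filament of mesenchymal and neural crest cells, had 10252 and 7283 CPM. Both were higher in replicate 1, where they took more footprints than every pigment gene. The actin list took 3.84% and 3.26% of coding footprints, with FLNA, which crosslinks actin, at 3163 and 3051 CPM and MYH9, the heavy chain of non-muscle myosin, at 2592 and 1846 CPM. Reads of ACTB can fit other actin genes, so its value is uncertain. LMNA, which lines the nucleus from within, had 3951 and 1756 CPM, and MAP4, which binds microtubules, 1068 and 1168 CPM.

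Proteins of adhesion and matrix, with other secreted proteins, formed the other large block. The adhesion and matrix list took 3.44% and 4.00%, with 11 of its 89 ranked genes in the top 100. TIMP3, an inhibitor of metalloproteinases held in the matrix, had 4245 and 3274 CPM, CTNNB1, the beta-catenin of junctions and Wnt signalling, had 2868 and 3593 CPM, and SPARC, a matrix glycoprotein, 3781 and 2079 CPM. FN1, fibronectin, had 1722 and 4324 CPM, and SERPINE2, a protease inhibitor, 1461 and 3479 CPM. Of the 89 members, 15 were at least 2-fold higher in replicate 1 and 18 in replicate 2, shares close to the 13.7% and 14.3% of all ranked genes. Outside the list, the protease inhibitor A2M had 2928 and 5517 CPM, LGALS3BP, a secreted glycoprotein, 6078 and 3097 CPM, and IGFBP7, a secreted binding protein, 1945 and 3193 CPM.

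Proteins of lysosomes and of the secretory pathway each took over 2% of coding footprints in both libraries. PSAP, the precursor of the saposins that help to break down sphingolipids in lysosomes, had 5747 and 5885 CPM and ranked 5, among the closest pairs of values in the top 30 (1.02-fold). The lysosome list took 2.21% and 2.54%, its median gene had 335 CPM, and LAMP1, a protein of the lysosomal membrane, had 986 and 1316 CPM. The list of the endoplasmic reticulum and secretory pathway took 2.17% and 2.62%, with the chaperone CALR at 2537 and 3129 CPM and PPIB, which aids collagen folding, at 1315 and 1392 CPM. HSP90B1, the chaperone GRP94, differed most among the first 5 of that list, with 609 and 2058 CPM.

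Of the metabolic genes, glycolysis took 1.76% and 1.34% with 14 ranked genes, 4 of them in the top 100. ALDOA, which splits fructose bisphosphate, had 4594 and 2684 CPM, GAPDH 4152 and 2999 CPM, and PKM, the last enzyme of the pathway, 3591 and 3077 CPM. The nuclear-encoded respiratory chain took 1.15% and 1.07% with 71 genes (a mean of 1.11% by count and 2.64% by density), led by the ATP synthase subunit ATP5F1B at 1822 and 1206 CPM. The amino acid carrier pair SLC3A2 and SLC7A5 had 2542 and 1685 CPM and 2137 and 1645 CPM. CCND1, the cyclin that drives entry into S phase, had 2408 and 2513 CPM, while the cell cycle list of 82 genes took 1.03% and 1.05%.

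**Figure D4:**
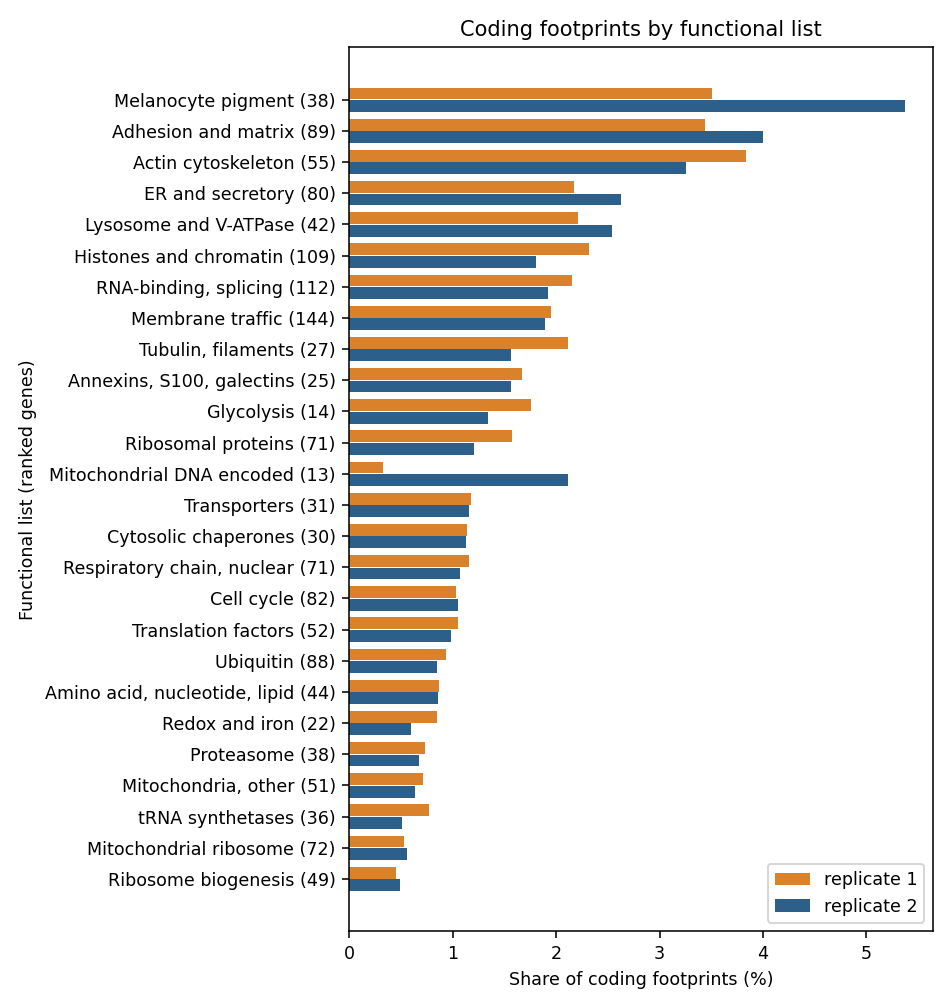
Share of coding footprints taken by each functional list, in percent, with the number of ranked genes in brackets; upper bars are replicate 1 and lower bars replicate 2. Bars start at 0, and the widest relative gap is that of the 13 genes encoded by mitochondrial DNA, at 0.321% and 2.11%.

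The lists left out most genes, and 9712 ranked genes on no list took 58.5% and 57.9% of coding footprints. Their median was 28.1 CPM, and 28 of them were in the top 100. One of these, with the identifier ENSG00000250644 and no gene name in the files, had 2697 and 3335 CPM and ranked 19.

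Per length the order changed. A longer coding sequence takes more footprints at the same ribosome density, so genes are compared here by the deposited coding RPKM (reads scaled to the length of the coding sequence and the library total) of their leading transcript. IFI6, an interferon-induced mitochondrial protein, had the highest mean density of the ranked genes, with 16003 and 9472 RPKM, although S100A6 and TYRP1 were above it in replicate 2. S100A6, a small calcium-binding protein, had 9667 and 11713 RPKM, TYRP1 4660 and 10260 RPKM, and MLANA 5546 and 5899 RPKM. So 3 pigment genes, TYRP1, MLANA and PMEL (3487 and 6947 RPKM), were among the 10 densest, along with ACTB, TIMP3, S100A11, VIM and LGALS1. S100A11 had 8733 and 1707 RPKM, and in replicate 2 CD63, outside these 10, was above it at 5787 RPKM. The 100 densest genes had a median coding length of 526.5 bases against 1504.5 bases for the 100 with most footprints and 1368 bases for all ranked genes, and 57 genes were in both sets. DCT had 9.14 and 9.41 RPKM, below the median ranked gene at 18.2 RPKM.

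Genes encoded by mitochondrial DNA, translated by the mitochondrion's own ribosomes, had the widest relative gap between libraries of the lists of ranked genes, with 0.321% and 2.11% of coding footprints. All 13 were higher in replicate 2, and 11 were so by at least 2-fold, against 14.3% of all ranked genes. MT-ND5, a subunit of complex I, had 893 and 10564 CPM. MT-CO1, the core of cytochrome oxidase, had 284 and 2069 CPM, and MT-CYB, of complex III, 617 and 2400 CPM. MT-ATP8 and MT-ATP6, which overlap on one message and so may share reads, had 28.2 and 893 CPM and 33.1 and 860 CPM. At the other end, MT-ND1 had 407 and 448 CPM (1.10-fold), so the members did not shift by a common factor. The nuclear-encoded respiratory chain did not show this, with 33 genes higher in replicate 1 and 38 in replicate 2.

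Interferon-stimulated genes ran the other way, though not alone. The muscle and collagen genes left in the ranking, described below, also leaned to replicate 1. So did tubulin and filaments, with 10 of 27 genes at least 2-fold higher there and 2 in replicate 2, and redox genes, with 5 of 22 and 0. The interferon list was written after values had been seen, so its direction is a description. Its 46 genes took 3.50% and 1.57% of coding footprints, 40 were higher in replicate 1, and 28 were so by at least 2-fold, against 13.7% of all ranked genes, while 0 were 2-fold higher in replicate 2. The median log2 difference was 1.31, against 0.03 over all ranked genes. ISG15, a ubiquitin-like modifier, had 1485 and 369 CPM, IFITM3, which blocks viral entry, 2221 and 472 CPM, and OAS2, a sensor of double-stranded RNA, 1364 and 495 CPM. RSAD2, the antiviral enzyme viperin, had 131 and 9.06 CPM. WARS1, a tryptophanyl-tRNA synthetase that interferon induces, had 3180 and 957 CPM. IFI6 differed less, with 7370 and 4207 CPM, so both libraries held many reads of this group.

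Ribosomal protein genes took 1.57% and 1.20% by count over 71 ranked genes, which are 0.632% of all ranked genes. None was in the top 100 and 29 were in the top 1000. Their median was 137 CPM, against 32.8 CPM over all ranked genes. By density their mean share was 3.01%, against 1.39% by count. RPL8 led them with 886 and 734 CPM. Among 73 such genes, 10 had 3 reads or fewer in each library, including RPL21, RPL7A, RPS26, RPS25 and RPL41, although every cytosolic ribosome carries these proteins. Density was lower where the RefSeq table names more pseudogenes after the gene, with a Spearman's rho across genes of -0.591. The 27 genes with up to 10 pseudogenes had a median of 420 RPKM, and the 25 genes with at least 30 had a median of 41.2 RPKM and a highest value of 440 RPKM. The groups overlapped, since RPS25, with 10 pseudogenes, had 0 reads in either library and RPL41, with 7, had 2 and 2 reads. EEF1A1, an elongation factor, named after its values were seen, has 50 pseudogenes in that table and had 39.1 and 102 CPM, whereas its partner EEF2 had 3475 and 1784 CPM. How reads that fit several places were counted is not given in the sources used here, its part in these values was not tested, and the shares of ribosomal proteins and EEF1A1 are uncertain.

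**Figure D5:**
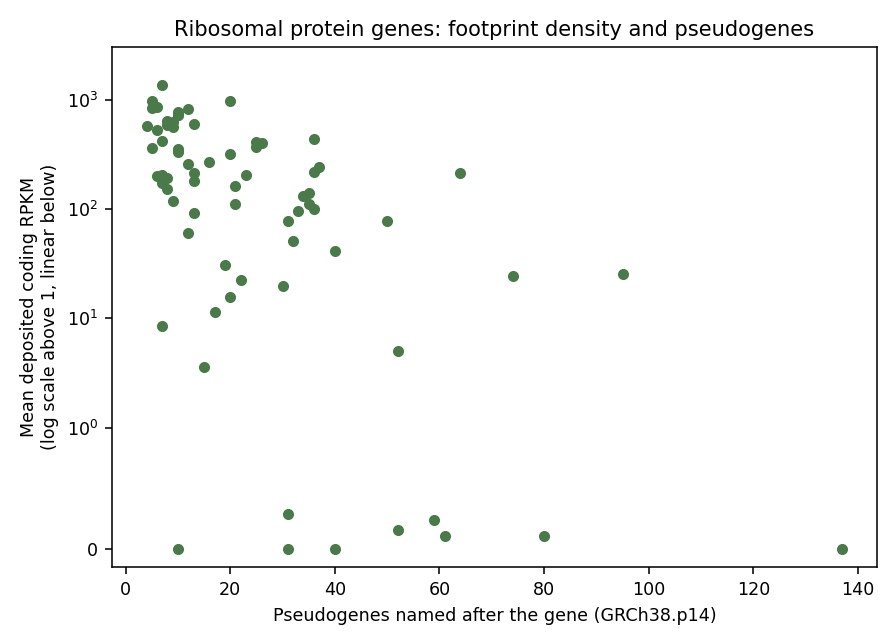
Mean deposited coding RPKM over both libraries (vertical, log scale above 1 and linear below) against the number of pseudogenes that RefSeq names after the gene (horizontal), with 1 point for each of 73 ribosomal protein genes. Genes with at least 30 pseudogenes lie at 440 RPKM or below, and the gene with most, RPL21 with 137, is listed at 0.

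TERT, the catalytic subunit of telomerase, was named after its values were seen. It had 2028 and 1015 CPM and ranked 51 by count, although telomerase is silent in most adult cells. By density, taken from its full-length transcript, it had 280 and 154 RPKM and ranked 623. Hermes lines are known to have been immortalised with an introduced TERT, and reads of an introduced copy and of the cells' own gene cannot be told apart here. The full-length transcript, with a coding sequence of 3399 bases, had 1940 and 3143 coding reads. It had 16 and 67 reads in its 5′ UTR and 0 in its 3′ UTR in either library. A 3′ UTR without reads was not particular to TERT, since ALDOA also had 0 there in both libraries, and the source of the TERT reads was not tested. A second transcript, with a coding sequence of 1725 bases, had 1796 and 2568 coding reads and 28 and 40 in its 3′ UTR.

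The genes set apart were muscle and collagen genes of replicate 1. Of all 13145 genes, 154 (1.17%) were at least 10-fold higher in replicate 1, with a library under 3 reads put at 3 reads, and 30 (0.228%) were so in replicate 2. These counts are not on equal terms, since 3 reads are 1.63 CPM in replicate 1 and 0.533 CPM in replicate 2. A gene missing from the other library thus needs a higher CPM to be counted in replicate 2. The 60 set apart comprised 56 muscle and 4 collagen genes, and 35 of them had no read in replicate 2. They held 12417 and 130 reads, which is 0.674% and 0.00231% of coding reads. TTN, the giant spring of the sarcomere, had 3285 and 5 reads, ACTA1, skeletal actin, 1858 and 23 reads, and MYH7, the slow myosin heavy chain, 647 and 1 reads. COL1A1, of type I collagen, had 699 and 0 reads, RYR1, the calcium release channel of muscle, 468 and 0, and CKM, muscle creatine kinase, 436 and 0. The rule chose these genes by this difference, which is therefore no finding. LDB3, at 10.6-fold, lay just inside the limit, and CKMT2 and MYL1, at 9.16-fold, just outside it. Of the genes on these lists with a read in either library, 71 were not set apart. Of these, 30 muscle and 10 collagen genes were seen in both libraries and stayed in the ranking, where 23 and 8 were higher in replicate 1, 15 and 4 of them by at least 2-fold, and 0 were 2-fold higher in replicate 2. Their median log2 differences (replicate 1 minus replicate 2) were 0.95 and 0.73, against 0.03 over all ranked genes. CRYAB, a small heat shock protein, had the most footprints of these muscle genes, with 553 and 652 CPM.

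The other 94 genes that were 10-fold higher in replicate 1 included interferon genes and products of other tissues, named after their values were seen. Muscle genes that were not on the muscle list were among them too. MYH7B had 119 and 1 reads, MYO18B 26 and 0, and ACTG2 31 and 8, and MYH7B stayed in the ranking at 5669. OASL had 384 and 95 reads, and the adrenergic receptor ADRA2C 256 and 0. The lung surfactant protein SFTPC had 126 and 4 reads, the haemoglobin chain HBB 66 and 0, and the pancreatic enzymes PRSS3 and CPA1 61 and 0 and 44 and 0. In the other direction ARL6IP1, a protein that shapes the endoplasmic reticulum, had 8 and 957 reads, and HMGN2, a chromatin protein, 3 and 436.

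Markers of other cell types were, outside muscle, low or carried mainly by 1 or a few genes. The 10 melanocyte markers summed to 26318 and 43630 CPM, with all 10 seen in each library. The 12 skeletal muscle markers summed to 3994 and 6.04 CPM, with 10 of them in replicate 2 at 3 reads or fewer. Among them MYLPF was looked up under an older symbol and counted as 0. Under the symbol MYL11 that gene had 66 and 0 reads and was set apart. Fibroblast markers summed to 589 and 342 CPM, from COL1A1 and COL1A2 in replicate 1 and from FAP, at 92.8 and 341 CPM, which led in replicate 2. Keratinocyte markers summed to 10.3 and 30.6 CPM, with KRT10 the only one above 3 reads. Endothelial markers summed to 11.9 and 1.78 CPM, erythroid markers to 37.4 and 0 CPM, hepatocyte markers to 0 and 5.51 CPM, and adipocyte markers had no read. Immune markers summed to 833 and 789 CPM, of which CD68, a lysosomal protein, gave 817 and 789 CPM. Schwann cell markers summed to 161 and 320 CPM, from MBP and CDH19, and smooth muscle markers to 345 and 112 CPM. All 10 skeletal muscle markers with reads in replicate 1 under the symbols searched were among the genes set apart. So were COL1A1 and COL1A2 of the fibroblast sum and DES, which gave 124 and 0.178 CPM of the smooth muscle sum. The difference of these genes between the libraries therefore restates the rule and is no finding here either. The part of skeletal muscle reads in the other differences between the libraries was not tested.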

How the data were processed

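Ribosome footprints of 2 control siRNA libraries were used. Per the file headers, the deposited tables give, transcript by transcript, a read count for the 5′ UTR, coding sequence and 3′ UTR. The authors also deposited RPKM values, which were checked to be scaled to the library total over all regions, and the other deposited columns are region lengths in bases. The submitters' processing notes name hg38 and DESeq2. For the aligner, annotation, filters, strand and treatment of reads that fit several places, the sources used here give nothing.

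Coding counts were summed by gene name and scaled to the coding total. Genes with at least 1 coding read in each library were ranked by mean CPM, and RPKM was taken from the transcript with most coding reads. Density shares therefore also depend on how a gene's reads are split among its transcripts, and lists can differ in this. No statistical test was run. Python 3.11.15, pandas 2.3.3, numpy 2.4.6 and scipy 1.17.1 were used, and the summing, scaling and setting apart were tested on simulated data. Of 13145 gene names 12824 matched RefSeq GRCh38.p14, the source of coordinates, promoter stretches and pseudogene names. Names without a symbol held 1.32% and 1.28% of coding reads.

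Named genes were the 4 melanocyte markers, the 30 highest by CPM and 10 by RPKM, the first 5 of each list, the 10 set-apart genes with most reads, the 10 largest folds per direction among genes with at least 50 reads in the higher library, and cell type markers. Members and lists were chosen with earlier results of these data known. Genes outside this rule were named for their role in a list, after their values had been seen. Alternatives were the highest transcript per gene, other scalings, density in place of counts, stricter read limits, other folds for setting apart and each library alone. A few genes that the rule names are not reported here.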

Additional observations from a re-analysis of the deposited data

Results flagged for a closer look

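The 3′ UTR of SLC46A1, a folate transporter, held 17002 reads in replicate 1, which is 24.0% of all 3′ UTR reads of that library (95% Clopper-Pearson interval 23.7 to 24.3). The gene had 3 coding reads there, and its 3′ UTR held 19 reads in replicate 2. It stood out because 3′ UTR reads were outside the coding measurement and were far above the level a count of 0 allows. Without it, 3′ UTRs held 2.66% of the reads of replicate 1, against 3.48% with it, and 1.03% in replicate 2. No coding value in the report uses these reads, although the deposited RPKM are scaled to a total that includes them.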

How the results depend on the processing

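With 2 libraries there is no test, and each value rests on both. No paired analysis was possible because the values come from a single group and no test. The 3 other settings of the counts and scaling moved no share of the pigment, secretory, actin or adhesion lists, or of the 4 markers, by more than the SD between libraries. Other choices of transcript, read limit or genes kept gave 739 to 755 genes holding 50% of footprints. Density in place of counts moved the adhesion and matrix list from 3.72% to 3.29%. It raised several lists by over 1.5 times, chromatin from 2.06 to 4.47%, annexins and S100 proteins from 1.62 to 4.00%, ribosomal proteins from 1.39 to 3.01%, the nuclear-encoded respiratory chain from 1.11 to 2.64%, mitochondrial ribosomes from 0.546 to 0.978% and redox genes from 0.724 to 1.12%. By over 1.5 times it lowered tubulin and filaments from 1.84 to 1.20%, transporters from 1.17 to 0.708%, tRNA synthetases from 0.640 to 0.381% and ribosome biogenesis from 0.473 to 0.311%. Of 88 alternatives over the other 22 lists, 40 moved a share by more than the SD between libraries and 48 did not. With either library left out, the genes that hold 50% of footprints numbered 708 to 725 (752 by mean). The ranges were 3.51 to 5.38% for the pigment list, 3.44 to 4.00% for adhesion and matrix, 3.26 to 3.84% for actin, 2.17 to 2.62% for the secretory list and 1.82 to 3.47% for PMEL, TYRP1, MLANA and DCT. The genes set apart numbered 80 at 5-fold, 47 at 20-fold, 60 with at least 10 reads in replicate 1, and 60 under median-ratio scaling, which was added after the values were seen. The top 100 of the libraries shared 60 genes by density and 72 by counts. Setting apart and shared genes need both libraries, so neither could be left out. Below 3 reads, or 1.63 and 0.533 CPM, a level was not detectable, which limits replicate 1 more.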

Other observations

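Reads in 5′ UTRs were spread unevenly over the genes with most footprints, named here after their values were seen. TIMP3 had 15.2% and 17.3% of its reads over all regions in its 5′ UTR in replicates 1 and 2, against 5.98% and 5.08% over all genes. IFI6 had 12.0% and 2.32%. VIM had 4.01% and 9.22%, and TYRP1 had 2.17% and 8.31%, with 341 and 9016 5′ UTR reads. PMEL had 0 and 30 5′ UTR reads. TIMP3 was thus above the whole-library share in both libraries, PMEL below it in both, and IFI6, VIM and TYRP1 changed sides between the libraries.

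The 3′ UTR of VGF, a secreted neuropeptide precursor, held 1597 reads in replicate 1 and 15 in replicate 2, with 284 coding reads in replicate 1. Coding length did not go with the difference between the libraries, with a Spearman's rho across ranked genes of -0.0040 between length and the log2 difference.

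NGFR, the p75 receptor carried by neural crest cells, had 785 and 175 CPM, and AXL, a receptor tyrosine kinase, 174 and 162 CPM. CDK4, the kinase partner of CCND1, had 277 and 176 CPM and ranked 835.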
